A study of Mus musculus with 17 samples.

Results

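The MHC class II antigen presentation genes are 8 genes: H2-Aa, H2-Ab1, H2-Eb1, H2-DMa and H2-DMb1 in the class II region of chromosome 17, and Ctss, Ciita and Cd74 on chromosomes 3, 16 and 18. They were chosen by name, out of 21938 protein-coding genes of the GENCODE M21 annotation (mm10), and their summits were read from 10 kb upstream of the gene to its end. The assay was ATAC-seq of mouse kidney, in which the Tn5 transposase cuts accessible DNA, with 20000 cells per library and 1 list of MACS2 peak summits per mouse. Ctrl were 5 male C57BL/6 wild-type mice given saline. Case were 6 male db/db mice (BKS.Cg-Dock7m +/+ Leprdb/J, leptin receptor mutant, a model of type 2 diabetes) given saline. Dapa were 6 male db/db mice of the same strain given dapagliflozin, an inhibitor of the sodium-glucose cotransporter SGLT2, at 1 mg/kg/day. All mice were 8 weeks old at the start and received saline or drug for 6 weeks. Ctrl and db/db mice differed in genotype, diabetes and background strain together, and these cannot be told apart in any comparison with Ctrl, which includes the H2 haplotype of the 5 genes on chromosome 17.

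MHC class II molecules are heterodimers of an alpha and a beta chain that display peptides from the endosome to CD4+ T cells. The invariant chain, encoded by Cd74, fills the groove of the new dimer and is trimmed by proteases such as cathepsin S, encoded by Ctss. H2-DM then exchanges the last fragment for a peptide. The genes share short promoter elements, the X box and the Y box, which bind the RFX, CREB and NF-Y factors and recruit the coactivator CIITA. Dendritic cells, macrophages and B cells express the pathway without induction, and other cells, the tubular epithelium of the kidney among them, can express it after interferon gamma.

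The promoter sequences of 3 class II genes are shown because a summit lay beside these shared elements. They come from RefSeq (build GRCm38.p6, the assembly of mm10), whose promoter entries matched 5 of the 8 genes. Each is written 5′ to 3′ on the strand of the gene, with the Y box (ATTGG or, on the other strand, CCAAT), the X box and the palindrome TGACGTCA in capitals. H2-Aa is on the minus strand and its 250 bases before the first exon are chr17:34287824-34288073. H2-Eb1 is on the plus strand, with 250 bases at chr17:34305617-34305866. Of H2-DMb1, also on the plus strand, only the 30 bases around each element are shown, at chr17:34153085-34153114 and chr17:34153118-34153147.
H2-Aa: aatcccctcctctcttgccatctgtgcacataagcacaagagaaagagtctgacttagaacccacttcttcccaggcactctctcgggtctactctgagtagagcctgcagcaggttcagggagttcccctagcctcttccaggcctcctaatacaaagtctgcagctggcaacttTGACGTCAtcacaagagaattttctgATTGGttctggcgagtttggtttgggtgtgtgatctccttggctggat
H2-Eb1: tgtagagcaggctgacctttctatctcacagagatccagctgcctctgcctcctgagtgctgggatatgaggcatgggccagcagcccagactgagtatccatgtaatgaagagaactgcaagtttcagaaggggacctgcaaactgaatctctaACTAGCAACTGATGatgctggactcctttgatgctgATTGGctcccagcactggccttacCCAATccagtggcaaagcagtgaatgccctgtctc
H2-DMb1 X box: gaggtttaCCTAGTAACTGATGatgctagg
H2-DMb1 Y box: attcactcagtgATTGGtctgacctgccta

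These 3 promoters were picked for their summits, so the distances are a description. The letters are those of the C57BL/6J reference to which the reads were aligned, and the BKS mice, in which every H2-Aa promoter summit was found, may differ from it. The search found no X box at H2-Aa. There the median summit was 4 bp from the middle of the Y box and 28 bp from that of TGACGTCA. At H2-Eb1 it was 13 bp from the X box, and 19 bp and 43 bp from the 2 Y boxes. At H2-DMb1 it was 4 bp from the Y box and 37 bp from the X box. Over the 32851 RefSeq promoter entries of 300 bases (250 before and 50 after the start), searched on both strands, a Y box was found in 37.4%, the X box consensus with at most 1 mismatch in 0.712%, both in 0.277% and TGACGTCA in 1.79%. The interferon gamma element TTCNNNGAA, found in 8.30% of all entries, was in none of the entries of the 5 genes. Of the other entries, one of H2-DMa held a summit and none of these elements, another held a Y box and no summit, and that of Ctss held neither. A match is a description of the letters and not of a bound site.

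The 17 lists held between 29702 and 56659 summits, and their median MACS2 score (the −log10 of a p or q value, as deposited) ran from 4.60 to 6.40. Depth could not be read from the files. The values below are therefore ranks within a library: each list was shortened to its strongest 29702 summits, the length of the shortest list, and a gene received the percentile of the highest-scoring summit in its window (100 for the strongest summit, 0 where the shortened list had none). Windows differ in length, so percentile levels were compared between mice and not between genes. An order of genes by the difference between groups is a description. Of 14 kidney epithelial marker promoters, between 8 and 11 had a summit in every library. Of 30 leukocyte marker promoters, 4 to 6 had one in Ctrl, 2 to 9 in Case and 3 to 8 in Dapa, with the highest counts in Case 3 (9) and Dapa 8 (8). Ptprc, Adgre1, Itgam, C1qa and Cd79a, which mark leukocytes, macrophages and B cells, had no summit in any library, whereas Mertk and Irf8 had one in all 17. Of the other macrophage and dendritic cell genes, Csf1r, Cx3cr1 and Itgax had one in 1 Case mouse each, Lyz2 in 1 Dapa mouse, Cd68 in 1 of each, and Zbtb46 in 5 Ctrl, 3 Case and 4 Dapa mice. The B cell factor gene Pax5 had one in all 5 Ctrl mice and in 3 mice of each db/db group. Of the pan-leukocyte genes, Spi1 had one in 0, 2 and 1, Coro1a in 1, 2 and 3, and Laptm5 in 0, 1 and 2 mice of Ctrl, Case and Dapa.

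**Figure D1:**
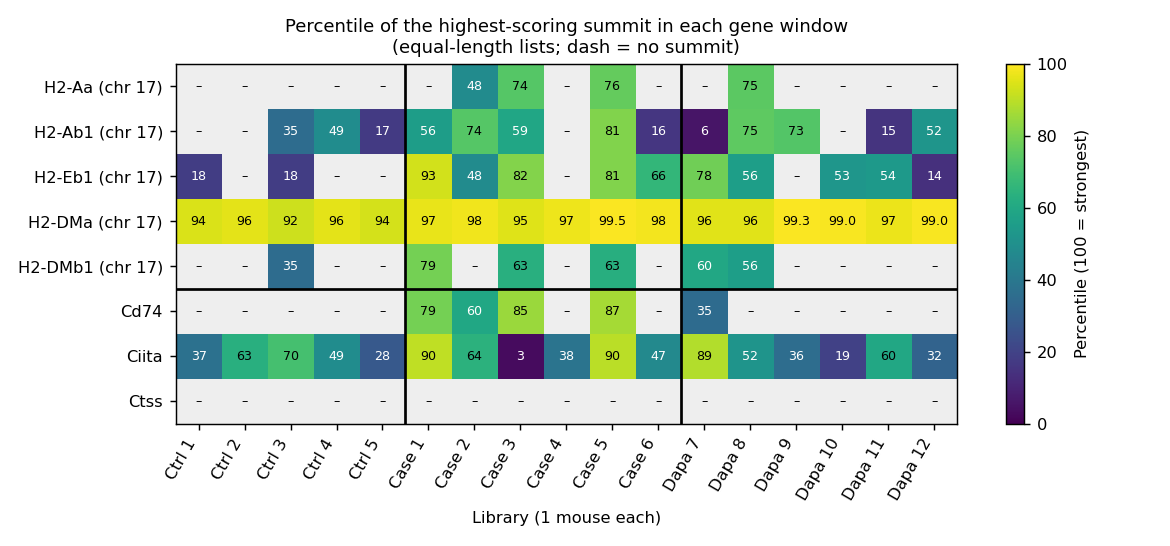
Percentile of the highest-scoring summit in the window of each class II pathway gene (rows) in each library (columns), with equal-length lists, where 100 is the strongest summit and a dash means that none was found. H2-DMa was between 92.4 and 99.5 in every library, Ctss had no summit, and the summits of H2-Aa and Cd74 were all in Case or Dapa mice.

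The number of the 8 genes with a summit ranged most widely among the Case mice. It was 3, 2, 5, 3 and 3 in Ctrl 1 to Ctrl 5, 6, 6, 7, 2, 7 and 4 in Case 1 to Case 6, and 6, 6, 3, 3, 4 and 4 in Dapa 7 to Dapa 12. Case 1, Case 2, Case 3 and Case 5 thus had more of the genes than any Ctrl mouse, and Case 4 had as few as the lowest Ctrl mouse. Off chromosome 17 the number was 1 in each Ctrl mouse (Ciita), and 2 (Cd74 as well) in these 4 Case mice and Dapa 7. The 4 high Case libraries had 4, 2, 9 and 4 leukocyte marker promoters with a summit, against 4 to 6 in Ctrl. The 4 of Case 1 were Mertk, Zbtb46, Irf8 and Pax5, which had a summit in all 5 Ctrl mice. The count therefore need not follow leukocyte number, which was not tested. Their complete lists held 43478, 31176, 29845 and 51292 summits, against 29702 in Case 4 and 38302 in Case 6. In whole kidney tissue, more cells of an expressing type and a more open site in each cell cannot be told apart.

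**Figure D2:**
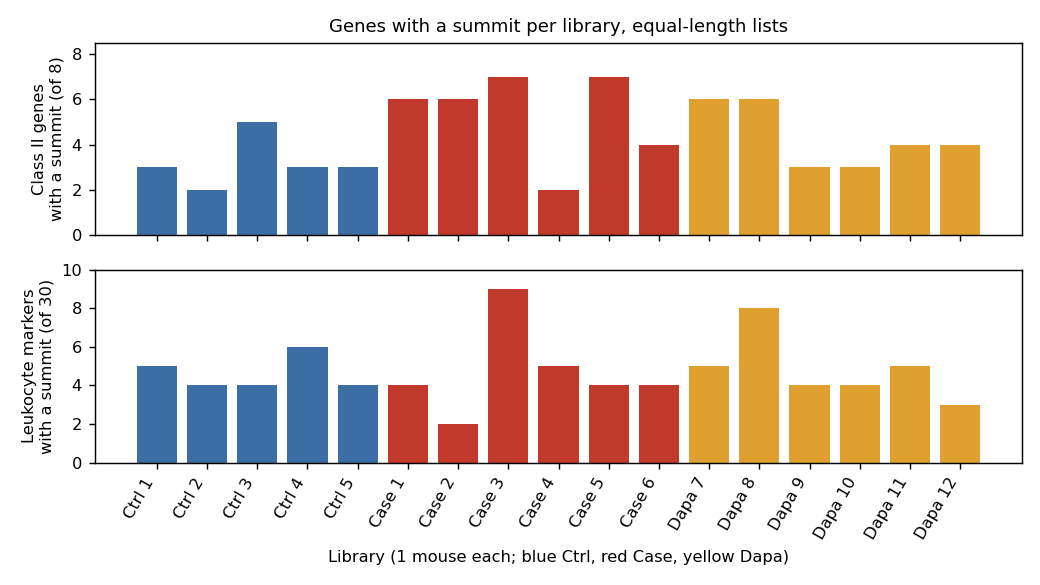
Number of class II pathway genes (of 8, top) and of leukocyte marker promoters (of 30, bottom) with a summit in each library, from the equal-length lists. The class II count reached 7 in Case 3 and Case 5, whose leukocyte marker counts were 9 and 4.

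Among the antigen-binding chains, H2-Eb1 was furthest apart between Ctrl and db/db mice in the shortened lists. With complete lists H2-Aa was 39.8 and H2-Eb1 38.4 points higher in Case than in Ctrl. Over all db/db mice these were 26.9 and 32.3 points. H2-Eb1, the beta chain of the E molecule, lies at chr17:34305867-34316674 on the plus strand. Its percentiles were 18.3, 0, 18.1, 0 and 0 in Ctrl 1 to Ctrl 5. In Case the lowest was 0 (Case 4), the median 73.6 and the highest 93.0 (Case 1), and in Dapa these were 0 (Dapa 9), 53.1 and 78.3 (Dapa 7). All Ctrl values were below those of 5 of 6 Case mice, and the remaining Case mouse had no summit. The main summit was 76 bp upstream of the start (distances here are those of the median summit of a region) and was found in 3 Ctrl, 5 Case and 5 Dapa complete lists. A second region 950 bp upstream of the start held summits in Case 1, Case 3, Case 5, Dapa 8 and Dapa 10 and in no Ctrl mouse, with percentiles from 41.8 to 69.0. Both lie within 1 kb of an annotated start of the antisense gene Gm20513, and ATAC-seq does not assign a site to either gene.

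H2-Aa, the alpha chain of the A molecule (chr17:34282744-34287823, minus strand), had no summit in any Ctrl mouse, even in the complete lists. It reached 48.1, 73.5 and 76.2 in Case 2, Case 3 and Case 5 and 74.9 in Dapa 8, and was 0 in the other 3 Case and 5 Dapa mice. The region at its promoter, 42 bp upstream of the start, held a summit in Case 3 (73.5), Case 5 (76.2) and Dapa 8 (48.8). The 74.9 of Dapa 8 came from a region 5878 bp upstream, which also held a summit in Case 3 (44.2). A further region in the interval between H2-Aa and H2-Eb1, 8418 bp upstream of H2-Aa and 9626 bp upstream of H2-Eb1, lies in the windows of both genes. The complete lists of Case 1, Case 2, Case 3, Case 5 and Dapa 8 held it, and those of Ctrl did not. Its median summit was at chr17:34296241. In Case 2 this intergenic region gave the 48.1 of both genes. The H2-Eb1 values therefore are not independent of those of H2-Aa.

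H2-Ab1, the beta chain of the A molecule (chr17:34257689-34269419, plus strand), was the antigen-binding chain most often seen in Ctrl. Its percentiles were 0, 0, 35.3, 48.6 and 16.8 in Ctrl 1 to Ctrl 5, against a median of 57.4 (0 to 81.1) in Case and 33.7 (0 to 75.2) in Dapa. The groups overlapped, and 4 of 6 Case and 3 of 6 Dapa mice were above the highest Ctrl mouse. Its main summit was 36 bp upstream of an annotated start, within an intron of longer transcripts, and was present in 14 of 17 complete lists. A second region, 1502 bp upstream of that start, held summits in Case 1, Case 3 and Case 5 and in no other mouse.

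**Figure D3:**
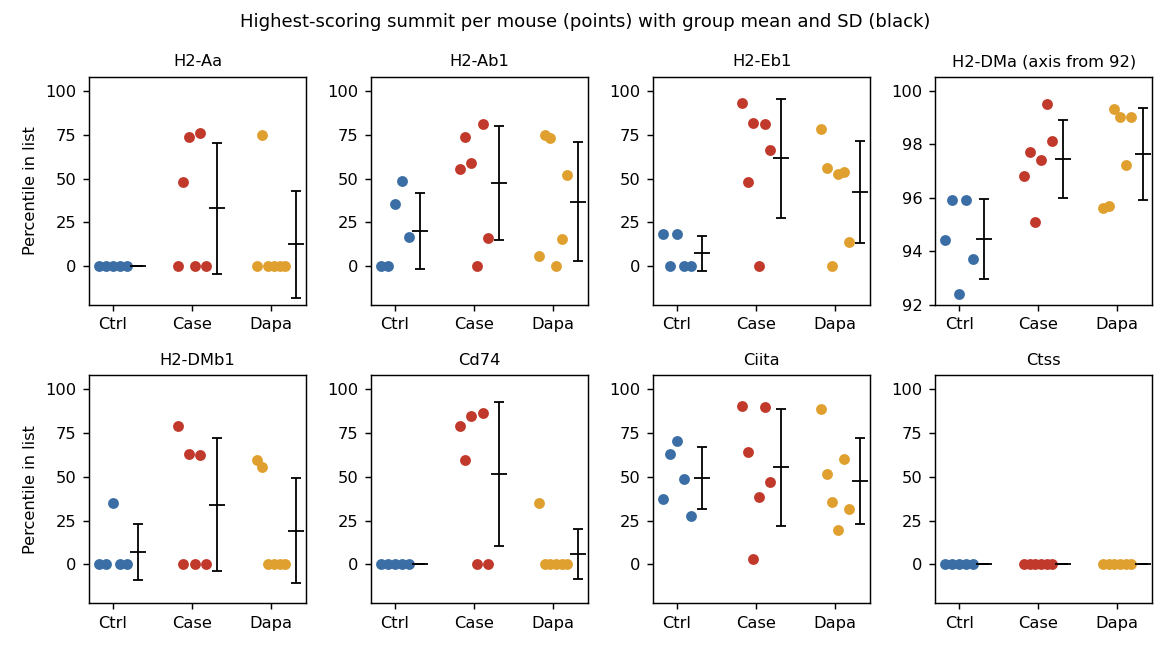
Percentile of the highest-scoring summit in each mouse (points) by group, with the group mean and SD in black, for the 8 genes. The H2-DMa axis starts at 92. For H2-Eb1, all 5 Ctrl mice were at or below 18.3, and 9 of 12 db/db mice were above that value.

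Of the 2 chains of H2-DM, the peptide exchange factor, H2-DMa had a summit in every shortened list and H2-DMb1 in 6 of 17, in windows of different length. H2-DMa, the alpha chain (chr17:34119541-34139101, plus strand), had percentiles of 94.4, 95.9, 92.4, 95.9 and 93.7 in Ctrl 1 to Ctrl 5, 95.1 to 99.5 with a median of 97.6 in Case, and 95.6 to 99.3 with a median of 98.1 in Dapa. In ranks, Ctrl lay between 1214 and 2259, Case between 141 and 1449, and Dapa between 213 and 1306. The groups overlapped only in Case 3, Dapa 7 and Dapa 8, and the other 9 db/db mice ranked ahead of all 5 Ctrl mice. In all 17 libraries this summit was in 1 region that spanned 64 bp, with its median 131 bp upstream of the start at 34135628, which is within a UTR exon of longer transcripts. Summits at the first H2-DMa start, within 1 kb of a start of Brd2, ranked lower (51.8 to 94.9) and never set the value. The same summit falls in the upstream window of H2-DMb2, so that gene carries the same values. H2-DMb1, a beta chain (chr17:34153072-34160230, plus strand), had a summit in Ctrl 3 (35.3), Case 1 (79.0), Case 3 (63.2), Case 5 (62.7), Dapa 7 (59.9) and Dapa 8 (55.9) and was 0 elsewhere. Its promoter region, 64 bp inside the first annotated start, was found in those same 6 mice, although in Dapa 8 the higher value came from a region 2958 bp upstream.

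Cd74, the invariant chain, lies at chr18:60803848-60812652. Its percentiles were 79.0, 59.5, 85.1 and 86.7 in Case 1, Case 2, Case 3 and Case 5 and 35.0 in Dapa 7, and 0 in Case 4, Case 6, the other 5 Dapa and all 5 Ctrl mice. These 5 values came from summits in 1 region, 177 bp upstream of the start, that spanned 42 bp. No Ctrl mouse had a summit in that region even in its complete list. Case 3 also had a lower intronic summit (35.9). The 4 Case mice were those with the most class II pathway genes, and 3 of them (Case 1, Case 3 and Case 5) also had the H2-DMb1 promoter summit.

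Ciita, the coactivator, lies at chr16:10480059-10528418 on the plus strand and had a summit in all 17 libraries. Its percentiles were 37.4, 63.1, 70.4, 48.6 and 27.9 in Ctrl 1 to Ctrl 5, 2.95 to 90.3 with a median of 55.7 in Case, and 19.4 to 88.6 with a median of 43.7 in Dapa. The Ctrl range lay inside that of both db/db groups. The main region was intronic, 6297 bp inside the nearest annotated start, and was missing only in Case 3. A region 359 bp inside that start was found in 2 Ctrl, 3 Case and 5 Dapa complete lists, but among the strongest 29702 summits in 0 Ctrl, 2 Case and 2 Dapa mice. Ctss (chr3:95526786-95556403, plus strand) had 1 summit in all, an intronic one in the complete list of Case 5, and none in the shortened lists.

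**Figure D4:**
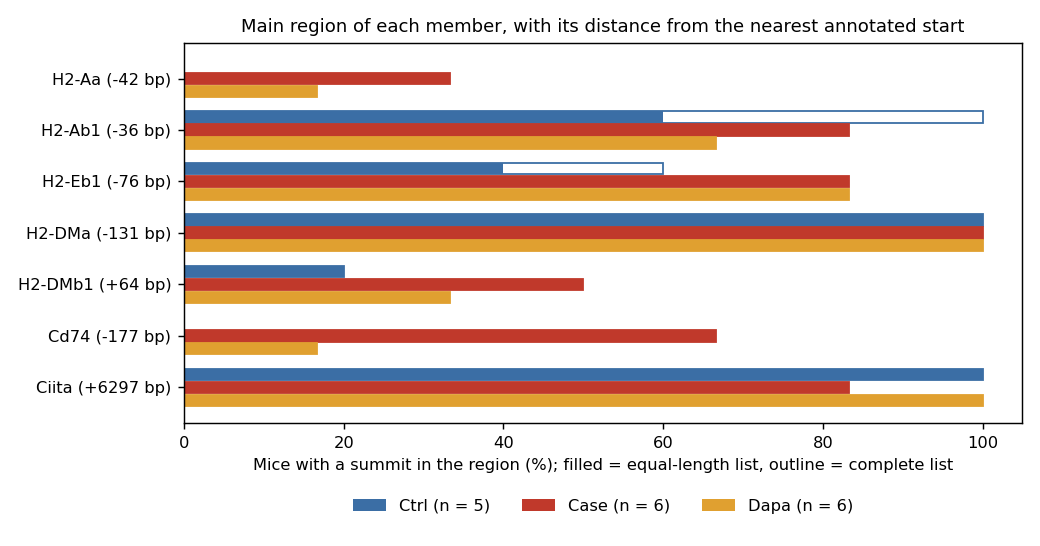
Share of mice in each group with a summit in the main region of each of the 7 genes with summits, where filled bars are equal-length lists and outlines add the complete lists. The promoter regions of H2-Aa and Cd74 had no Ctrl mouse in either kind of list, while 5 of 5 Ctrl mice had the H2-Ab1 region in the complete list and 3 of 5 in the shortened one.

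Case and Ctrl were compared to ask which sites differ with the db/db state. The mean percentile was higher in Case for all 5 genes of chromosome 17, where the H2 haplotype cannot be told apart from the db/db state. Their median difference was 27.4 points, against −0.538 over the 17972 genes tested, of which 47.0% were higher in Case. Of the 3 genes on other chromosomes, Cd74 was 51.7 and Ciita 5.99 points higher, and Ctss was 0 in both groups. H2-Eb1 averaged 61.7 ± 34.0 in Case (SD, n = 6) and 7.27 ± 9.96 in Ctrl (SD, n = 5), a difference of 54.4 points (exact 2-sided permutation p = 0.0260). H2-DMa averaged 97.4 ± 1.47 and 94.5 ± 1.49, a difference of 2.99 points (exact permutation p = 0.0130). These 2 genes, both on chromosome 17, had an unadjusted p under 0.05 with a higher value in Case. That is 2 in 8, with Ctss not tested, where the background was 3.54% of all genes tested. Neither held after Benjamini-Hochberg adjustment over all genes (permutation adjusted p = 0.342 for H2-Eb1 and 0.271 for H2-DMa). For Cd74 the means were 51.7 ± 41.2 and 0 (exact permutation p = 0.0909), and 4 of 6 against 0 of 5 mice had a summit (Fisher's exact p = 0.0606). Leaving out 1 mouse at a time moved the Cd74 difference between 44.7 points (without Case 5, exact permutation p = 0.167) and 62.0 (without Case 4 or Case 6, the Case mice at 0, exact permutation p = 0.0476, Benjamini-Hochberg adjusted p = 0.414 and 0.439). H2-Aa (33 against 0), H2-Ab1 (47.6 against 20.1), H2-DMb1 (34.2 against 7.06) and Ciita (55.5 against 49.5) had exact permutation p-values of 0.242, 0.147, 0.242 and 0.714. The H2-Ab1 difference of 27.4 points ran from 20.7 without Case 5 to 37.0 without Case 4 (exact permutation p = 0.0476, adjusted p = 0.414, in the latter). No gene of the annotation passed an adjusted p of 0.05: of 17972 genes tested by percentile 2100 had an unadjusted exact permutation p under 0.05, and of 2127 tested by presence 168 (7.90%) had an unadjusted Fisher's exact p under 0.05. The genes tested by presence are those whose total number of summits could reach that p, and 0 of the 3 tested among the 8 genes (H2-Eb1, H2-DMb1 and Cd74) did.

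In complete lists, H2-Ab1 had a summit in all 5 Ctrl and 5 of 6 Case mice, and H2-DMb1 in 3 of 5 Ctrl and 3 of 6 Case mice. The direction of their presence thus was the opposite of that in the shortened lists, in which H2-Ab1 was present in 3 of 5 Ctrl and H2-DMb1 in 1 of 5. Cd74 was present in 4 of 6 Case and 1 of 5 Ctrl mice (Fisher's exact p = 0.242), the latter Ctrl 3. The percentile difference in H2-Ab1 was 9.91 points with complete lists (exact permutation p = 0.550). That in H2-Eb1 was 38.4 points (exact permutation p = 0.0823) and that in H2-DMa 1.47 (exact permutation p = 0.117). The Ciita difference changed sign, from 5.99 to −6.14 points.

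Dapa and Case were compared to ask what the drug changed within db/db mice, where genotype and strain are shared. The mean percentile was lower in Dapa for 4 of the 5 genes of chromosome 17 and for Cd74 and Ciita. The median difference was −14.9 points on chromosome 17, against 0.0556 over the 18349 genes tested, of which 50.5% were higher in Dapa. Cd74 was furthest apart, at 5.83 ± 14.3 in Dapa and 51.7 ± 41.2 in Case (SD, n = 6 each), a difference of −45.9 points (exact permutation p = 0.0606, Benjamini-Hochberg adjusted p = 1.00). In the shortened lists Dapa 7 alone had a Cd74 summit, against 4 Case mice (Fisher's exact p = 0.242). In the complete lists Dapa 9 and Dapa 12 also had one, at other positions in the gene, which made 3 of 6 Dapa against 4 of 6 Case mice (Fisher's exact p = 1.00), and the percentile difference was −42.7 points (exact permutation p = 0.0844). Leaving out 1 mouse at a time moved the shortened-list difference between −56.2 points (without Case 4 or Case 6, exact permutation p = 0.0303, adjusted p = 1.00) and −38.9 (without Case 5), with exact permutation p-values up to 0.121. H2-Aa (−20.5 points), H2-Eb1 (−19.3), H2-DMb1 (−14.9), H2-Ab1 (−10.7) and Ciita (−7.59) had exact permutation p-values from 0.310 to 0.654. Without 1 mouse these differences ran from −33.0 (without Dapa 8) to −11.8 (without Case 5) for H2-Aa, from −31.6 (without Case 4) to −10.8 (without Dapa 9) for H2-Eb1, and from −23.0 (without Dapa 7) to −5.89 (without Case 1) for H2-DMb1. They ran from −20.2 (without Case 4) to −3.28 (without Dapa 10) for H2-Ab1 and from −18.1 (without Case 3) to −0.627 (without Case 1) for Ciita. H2-DMa differed by 0.181 points (exact permutation p = 0.859). Of the 8 genes 0 had an unadjusted p under 0.05 in either direction, where the background was 1.47% lower and 1.94% higher in Dapa, and 0 of the 2 genes that could be tested by presence (H2-DMb1 and Cd74), where it was 1.02% in either direction. The absence of such a p does not show that these sites were unchanged by the drug.

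Dapa and Ctrl, and the 12 db/db mice together and Ctrl, share their Ctrl mice with the first comparison and are not separate evidence. In Dapa, H2-Eb1 averaged 42.4 ± 29.4 (SD, n = 6), 35.1 points above Ctrl (exact permutation p = 0.0649), and H2-DMa 97.6 ± 1.71, 3.17 points above Ctrl (exact permutation p = 0.0260, Benjamini-Hochberg adjusted p = 0.325). Leaving out 1 mouse moved the H2-Eb1 difference between 27.9 points (without Dapa 7) and 43.6 (without Dapa 9), with exact permutation p-values from 0.0238 to 0.119. It was 40.8 without Dapa 12, and the adjusted p was 0.341 without Dapa 9 and 0.427 without Dapa 12 (exact permutation p = 0.0238 and 0.0476 before adjustment). Without Ctrl 1, Ctrl 3 or Ctrl 5 the H2-DMa difference was 3.14, 2.65 or 2.99 points (exact permutation p = 0.0571 in each). H2-DMa was the 1 gene of 8 with an unadjusted p under 0.05 and a higher value in Dapa, against a background of 4.34% by percentile, and H2-Eb1, the 1 gene of the 8 that could be tested by presence, was not among the 5.59% called. H2-Ab1 was 16.8 and H2-DMb1 12.2 points above Ctrl (exact permutation p = 0.359 and 0.545), the latter 4.12 without Dapa 7. H2-Aa was 12.5 and Cd74 5.83 points above Ctrl, each through 1 mouse (Dapa 8 and Dapa 7), without which the difference was 0. Ctss was 0 in both groups and was not tested by percentile. The Ciita difference, Dapa minus Ctrl, was −1.60 points (exact permutation p = 0.905). Its sign turned in 5 of the 11 fits without 1 mouse (−9.75 to 4.09), with lists of 14851 summits (3.36) and within 1 kb of starts (4.89).

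Over all 12 db/db mice, H2-Eb1 averaged 52.0 ± 31.9 (SD, n = 12) and was 44.7 points above Ctrl (exact permutation p = 0.0149, Benjamini-Hochberg adjusted p = 0.222), with 9 of 12 mice above the highest Ctrl mouse. H2-DMa averaged 97.5 ± 1.52 and was 3.08 points above Ctrl (exact permutation p = 0.00323, adjusted p = 0.117), also with 9 of 12 mice above. With complete lists the H2-Eb1 difference was 32.3 points (exact permutation p = 0.0779) and that of H2-DMa 1.79 (exact permutation p = 0.0223), and with scores of at least 5 they were 33.5 and 2.33 points (exact permutation p = 0.0520 and 0.107). These 2 of 8 genes, of which Ctss was not tested, compare with a background of 3.77% higher by percentile. By presence 0 of the 5 genes that could be tested had an unadjusted p under 0.05, where the background was 6.92%. A H2-Eb1 summit was seen in 10 of the 12 db/db and in 2 of the 5 Ctrl mice (Fisher's exact p = 0.117). Without Case 3 and Dapa 8, the libraries with the most leukocyte marker promoters, the differences were 41.4 points for H2-Eb1 and 3.51 for H2-DMa (exact permutation p = 0.0306 and 0.00200). In the same mice H2-Aa was 12.4 points above Ctrl (22.7 with all mice), H2-DMb1 13.1 (19.7), H2-Ab1 17.1 (22.1), Cd74 26.0 (28.8) and Ciita 7.07 (2.20), each with an exact permutation p of at least 0.308. The part of leukocyte number in the remaining differences was not tested.

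The other genes of the pathway, 22 of which are annotated as protein-coding and were tested (H2-Ea and Ifi30 are not), had few differences. Apart from H2-DMb2, which shares the H2-DMa summit, 3 had an unadjusted exact permutation p under 0.05 in a comparison, and none passed adjustment. Over all genes tested, 8.15% were lower in Case than in Ctrl at that threshold, 7.85% were lower in Dapa and 9.61% in all db/db mice. Those higher were 3.54%, 4.34% and 3.77%. Of the pathway genes tested (21, 21 and 22), 1, 2 and 1 were lower in these 3 comparisons. Higher were H2-DMb2 in each of them and Irf1 in all db/db mice. Irf1, a transcription factor induced by interferon, averaged 34.0 ± 27.9 in Ctrl, 64.1 ± 18.4 in Case and 60.6 ± 14.7 in Dapa, and was 28.3 points higher in all db/db mice than in Ctrl (exact permutation p = 0.0259, Benjamini-Hochberg adjusted p = 0.285). March1, a ubiquitin ligase that removes class II molecules from the cell surface, averaged 71.5 ± 6.27 in Ctrl, 50.9 ± 18 in Case and 57.5 ± 8.36 in Dapa, 17.3 points lower in all db/db mice (exact permutation p = 0.0136, adjusted p = 0.214). Rfxap, a subunit of the RFX complex, averaged 77.1 ± 8.69 in Ctrl and 47.0 ± 24.4 in Dapa (exact permutation p = 0.0433, adjusted p = 0.375). The X box and Y box factor genes Rfx5, Rfxank, Creb1, Nfya, Nfyb and Nfyc had a summit in all 17 libraries with group means from 85.1 to 97.1. Interferon gamma receptor gene Ifngr1 was between 98.1 and 99.1 in the group means, and the means of Ifngr2 were 12.0, 28.7 and 32.7 in Ctrl, Case and Dapa.

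The genes around the class II region were called in both directions. Of 225 other protein-coding genes at 33 to 38 Mb of chromosome 17, 182 were tested between Case and Ctrl, and 9 (4.95%) were higher and 10 (5.49%) lower at an unadjusted exact permutation p under 0.05, with a median difference of 1.75 points. The shares over all genes were 3.54% higher and 8.15% lower. Between Dapa and Ctrl 12 of 186 (6.45%) were higher and 6 (3.23%) lower, against 4.34% and 7.85% over all genes. Between all db/db mice and Ctrl 6 of 198 (3.03%) were higher and 11 (5.56%) lower, against 3.77% and 9.61%. Between Dapa and Case 3 of 192 (1.56%) were higher and 2 (1.04%) lower, against 1.94% and 1.47%. At least 1 Mb from the 8 genes, the percentiles across the 17 libraries that followed the mean percentile of the 8 genes most closely were those of Slc7a7, an amino acid transporter (Spearman's rho = 0.85), Sfta2 (0.82) and Dock6 (0.81). These correlations are a description over libraries that share groups and list length. Slc7a7, on chromosome 14, averaged 60.2 in Ctrl, 81.0 in Case and 66.2 in Dapa. The Sfta2 means were 0, 30.5 and 26.1 in the same order. Sfta2 is on chromosome 17, as the H2 genes are, and strain cannot be told apart from the db/db state in its difference from Ctrl.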

How the data were processed

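The authors aligned reads to mm10 with Bowtie2, removed duplicates and blacklisted regions, shifted the ends for Tn5 insertion and called peaks per mouse with MACS2, whose versions are not given in the sources used here. The deposited score of each summit is a −log10 value (p or q), which depends on depth, so it was used only to rank. Depth is unknown, and no counting interval was given. Summits on chromosomes 1 to 19, X and Y were kept. Tied scores (up to 5855 summits) shared their mean rank, a rule that replaced ranking by position after results had been seen, so shortened lists held 28453 to 30788 summits. Summits within 500 bp of each other formed a region. For 21938 genes, presence was compared by Fisher's exact test and percentiles by exact 2-sided permutation of means, with Benjamini-Hochberg adjustment over all genes tested (Python 3.11.15, scipy 1.17.1). Code was tested on simulated data. The 8 genes always, and pathway genes with an unadjusted p under 0.05, were named. Members and lists were chosen with earlier results of these data known. Alternatives were complete lists, lists of 14851, scores of at least 5, windows from 2 kb upstream or 1 kb around starts, absent libraries left out, each mouse left out and a replicate block. Leaving out Case 3 and Dapa 8 and the search for TGACGTCA were chosen after seeing the data, and ranking by position was kept as an alternative.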

Additional observations from a re-analysis of the deposited data

Results flagged for a closer look

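In 3 of the 25 groups of values examined, 1 mouse stood apart from the rest of its group by Dixon's criterion. In each it was the only mouse of the group with a summit in the shortened list. With the others tied at 0 any such mouse meets the criterion, so the rate of about 1 in 20 groups that chance gives for continuous values does not apply here. For H2-Aa in Dapa, Dapa 8 was at 74.9 and the other 5 mice at 0. Dapa 8 also had the second highest count of leukocyte marker promoters (8), and its part in the H2-Aa value was not tested. For H2-DMb1 in Ctrl, Ctrl 3 was at 35.3 and the other 4 mice at 0. Ctrl 3 also had the most class II pathway genes of its group (5). For Cd74 in Dapa, Dapa 7 was at 35.0 and the other 5 mice at 0.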

How the results depend on the processing

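No gene passed an adjusted p of 0.05 in 162 recounts over all genes under other settings. The 2 exceptions were percentiles of db/db against Ctrl, where 130 genes passed with complete lists and 662 with scores of at least 5, against 0, and none of the 8 genes was among them. With complete lists the presence difference was −16.7 percentage points for H2-Ab1 in each comparison with Ctrl, and for H2-DMb1 −10.0 (Case), −26.7 (Dapa) and −18.3 (db/db), opposite to the shortened lists. Ciita changed sign in Case against Ctrl (−6.14 with complete lists, −2.89 with scores of at least 5), in db/db against Ctrl (−6.32 and −6.75) and in Dapa against Ctrl (3.36 with 14851 summits, 4.89 within 1 kb of starts). Leaving out 1 mouse moved Ciita from −0.973 to 16.5 (Case against Ctrl), −9.75 to 4.09 (Dapa against Ctrl) and −3.19 to 7.42 (db/db against Ctrl), and H2-DMa in Dapa against Case from −0.284 to 0.597. H2-Eb1 in Case against Ctrl was 40.6, 42.8 and 55.8 points with 14851 summits, with scores of at least 5 and without absent libraries (exact permutation p = 0.0909, 0.0909 and 0.0952), and H2-DMa with scores of at least 5 was 1.70 points (exact permutation p = 0.316). In db/db against Ctrl, H2-Eb1 was 44.2 points with absent libraries left out (exact permutation p = 0.0909). H2-DMa with scores of at least 5 was 2.97 points in Dapa against Ctrl (exact permutation p = 0.0519). With 14851 summits, presence in db/db against Ctrl differed by 58.3 percentage points for H2-Ab1 and 66.7 for H2-Eb1 (Fisher's exact p = 0.0441 and 0.0294). The cause of these shifts was not tested. With a replicate block, H2-Eb1 was 53.5 and H2-DMa 2.85 points higher in Case (exact permutation p = 0.125 and 0.0625). The latter is the smallest exact permutation p that 5 pairs allow, so no gene could pass and the block decides nothing. Same-numbered mice did not deviate together (correlations −0.0380 to 0.0589), so the numbers were not taken as pairs. Ranking ties by position changed no direction or call of the 8 genes. Depth is unknown, so a missing summit does not show a closed site.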
